A study of Mus musculus with 9 samples.

Results

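Genes of iron uptake, export and scavenging were followed in the brains of 9 mice. The set was taken by name: the rows of the deposited table whose gene symbol was Trf, Tfrc, Slc11a2, Steap3, Slc39a14, Slc11a1, Cybrd1, Slc40a1, Cp or Lcn2, which gave 10 genes of 35112, each found once. All mice were wild type C57BL/6, and brain was taken 72 hours after the procedure. The 3 groups of 3 mice were sham (a control treatment in the labels), ICH (intracerebral haemorrhage, a bleed within the brain) and ICH+P7C3-A20 (the same injury with P7C3-A20, a neuroprotective aminopropyl carbazole). The brain region, the way the bleed was made, the dose and route of P7C3-A20, and the age and sex of the mice are not stated in the labels. Polyadenylated RNA was sequenced as strand-marked libraries, 1 per mouse.

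Iron travels in blood and interstitial fluid bound to transferrin, which cells take up through the transferrin receptor. In the endosome the iron is released, reduced by a ferrireductase and moved into the cytosol by a divalent metal transporter, while ferroportin, helped by a ferroxidase, carries iron out of the cell. After a bleed, haemoglobin of lysed red cells is a source of iron in brain tissue, and macrophages and microglia are known for taking up and recycling it.

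The libraries held 51537047 to 63324728 estimated counts, so that a floor of 3 counts corresponded to 0.0474 to 0.0582 CPM (counts per 1000000 counts of the library). In the values that follow, library totals were first scaled by the trimmed mean of M-values (TMM). Pan-neuronal markers, which define brain tissue, were above 0 in every library and summed to 2566 to 5202 CPM. Mitochondrially encoded genes held 8.52% to 17.6% of the counts. Libraries within a group differed in regional markers: choroid plexus markers summed to 40.3 CPM in ICH 2 and 3305 CPM in ICH 3, and cortical neuron markers to 1250 CPM in ICH+P7C3-A20 1 against 411 and 500.2 CPM in the other ICH+P7C3-A20 libraries. Cortical neuron markers also differed between ICH and ICH+P7C3-A20: their sum was 203.1 to 297 CPM in ICH, below every ICH+P7C3-A20 library. Of the 8, 7 did not overlap between these groups (median log2 change 1.43, 0 of 8 called by edgeR), against 33.6% of all genes tested (15.1% higher). In sham the sum ran from 145 to 389 CPM, on both sides of ICH. Between sham and ICH, 0 of the 8 were without overlap, against 42.1% of all genes tested. The part of such regional differences in the changes from ICH to ICH+P7C3-A20 was not tested. ICH+P7C3-A20 1 also had 4474 CPM of oligodendrocyte markers, against 6929 CPM or more in each of the other 8 libraries. In bulk tissue, fewer cells of a type and less RNA per cell cannot be told apart.

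After ICH, 8 of the 10 iron genes rose and 1, the transferrin receptor Tfrc, fell. Lcn2, an iron-siderophore scavenger, rose 143-fold and Slc11a1, the phagosomal metal transporter, 20.6-fold, and the remaining 6 that rose did so between 1.95-fold and 5.81-fold. Of all 21900 genes tested, 26.0% were called in this comparison (15.6% higher and 10.4% lower; edgeR quasi-likelihood test, two-sided, Benjamini-Hochberg adjusted p under 0.05). The CPM of sham and ICH libraries did not overlap for any of the 10, of which 8 were higher and 2 lower in ICH, against 42.1% of genes tested (23.3% higher and 18.8% lower). The median log2 change of the 10 was 1.84, and that of all genes tested was 0.002. Because the 10 were chosen with earlier results of these data known, comparisons with all genes, here and below, are not independent of that choice.

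In ICH+P7C3-A20 against ICH, 7 of the 10 fell, where 8.74% of all genes were called (2.69% higher and 6.05% lower). By edgeR 0 of the 10 were called higher, 1 (Tfrc) was at an unadjusted p under 0.05, and DESeq2 and limma also called 0. The falls ran from 1.53-fold for Slc39a14 to 3.05-fold for Slc11a1, and the groups did not overlap for 9 of the 10 genes, 8 lower and 1 higher, against 33.6% of genes tested (18.5% lower and 15.1% higher). The median log2 change was -0.93, against -0.007 for all genes tested. In ICH+P7C3-A20 against sham, 5 of the 10 were called higher and 0 lower, where 5.32% of all genes were called (4.58% higher and 0.744% lower; 0 of the 10 were lower at an unadjusted p under 0.05, by DESeq2 or by limma). The groups did not overlap for 6 of the 10, with 6 higher and 0 lower, against 20.4% of genes tested (12.6% higher and 7.84% lower), and the median log2 change was 0.77, against 0.03. For each of the 10 genes the mean of the ICH+P7C3-A20 libraries lay between the sham and the ICH mean. The comparisons share groups (each group enters 2 of the 3), so their values are not independent of each other.

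**Figure D1:**
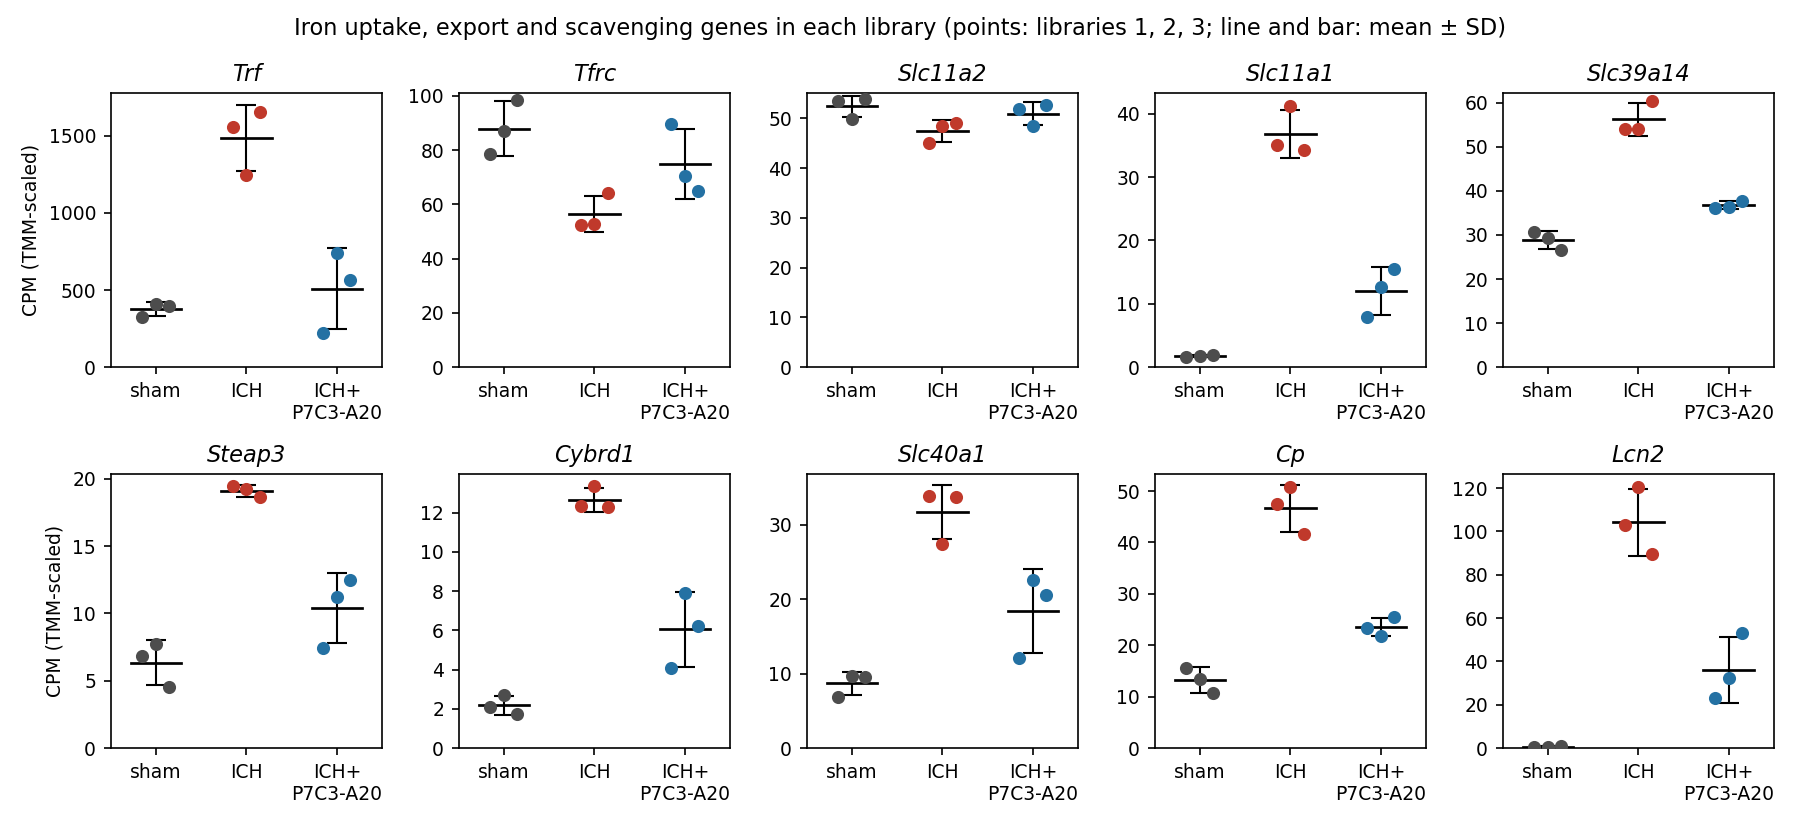
Level of each of the 10 iron genes in each library, in TMM-scaled CPM (vertical axis, from 0, a separate scale for each gene), with sham in grey, ICH in red and ICH+P7C3-A20 in blue; points stand for libraries 1, 2 and 3 from left to right, the horizontal line for the mean and the bar for the SD (n = 3). The ICH points lie above every sham point for 8 genes and below every sham point for Tfrc and Slc11a2.

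The transferrin cycle was described first. Trf (chr9:103204001-103230444, minus strand, GRCm38) encodes transferrin, the iron carrier, made in the brain mainly by oligodendrocytes and the choroid plexus. Trf stood at 324, 412 and 396 CPM in the sham libraries, at 1557, 1245 and 1655 CPM in the ICH libraries and at 221, 740 and 568 CPM in the ICH+P7C3-A20 libraries. Every ICH library was above every other library, while the ICH+P7C3-A20 libraries spread on both sides of the sham range, with ICH+P7C3-A20 1 the lowest of the 9. The rise from sham to ICH was 3.94-fold (log2 change 1.98 ± 0.35, standard error; edgeR adjusted p = 0.00237). The level in ICH+P7C3-A20 was 2.92-fold lower than in ICH (log2 change -1.54 ± 0.35, edgeR adjusted p = 0.0244). Against sham, the ICH+P7C3-A20 change was 0.43 ± 0.34 on the log2 scale (edgeR adjusted p = 0.583, 95% interval -0.32 to 1.19). Without ICH+P7C3-A20 1 that last change was 0.79 and was called (edgeR adjusted p = 0.0232). The call against ICH was lost without ICH 1, ICH 2, ICH 3 or ICH+P7C3-A20 3 (edgeR adjusted p = 0.0771, 0.0569, 0.0893 and 0.0536) and with no filter on low counts (edgeR adjusted p = 0.0681). A read-through gene on the same strand, Gm20425, shares 1517 bases with Trf in the annotation and was not analysed here. Trf transcripts also share stretches of up to 154 bases (95% identity or more) with 12 other genes, and its counts carry that uncertainty.

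Tfrc (chr16:32608920-32632794, plus strand) encodes the transferrin receptor, whose mRNA is known to be stabilised when iron regulatory proteins bind stem-loops in its 3' untranslated region. Those stem-loops are shown here because Tfrc was the member called lower after ICH. GENCODE M21 transcripts on GRCm38 were searched on the transcript strand for an unpaired C, 5 bases of any kind and the loop CAGTGN (final base not G), with those 5 bases paired across the loop and at least 4 of 5 pairs below the C. Matches lay in a UTR of 13 of 22527 coding genes (0.0577%), and Tfrc, with 4, was the 1 coding gene with 2 or more in a 3' UTR. Slc40a1, the ferroportin gene, had 1 match in its 5' UTR, where binding is known to hold back translation, so 2 of the 10 iron genes matched this pattern. Stem-loops of another shape, such as those with a further unpaired base, would be missed by this search. The lack of a match, as in Slc11a2, does not say that a gene has no such element. Each Tfrc match lay in 1 of 3 coding transcripts, and the Slc40a1 match in 1 of 4. The values per gene do not tell these transcripts apart. Each match is 27 bases long, written 5' to 3' in the transcript's sense, and capitals mark the unpaired C and the 6-base loop.
Tfrc 3' UTR, chr16:32631220-32631246, plus strand: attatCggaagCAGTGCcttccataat
Tfrc 3' UTR, chr16:32631599-32631625, plus strand: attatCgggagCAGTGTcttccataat
Tfrc 3' UTR, chr16:32631664-32631690, plus strand: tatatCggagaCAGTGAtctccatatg
Tfrc 3' UTR, chr16:32631711-32631737, plus strand: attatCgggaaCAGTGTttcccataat
Slc40a1 5' UTR, chr1:45925466-45925492, minus strand: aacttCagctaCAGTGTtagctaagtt
The ferritin genes Fth1 and Ftl1, which store iron, each also had a match in the 5' UTR. A match describes these letters and says nothing of binding in these brains.

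Tfrc stood at 78.4, 87.0 and 98.4 CPM in sham, 52.4, 52.8 and 64.2 CPM in ICH and 89.6, 70.4 and 65.1 CPM in ICH+P7C3-A20. The ICH libraries were below all other libraries in CPM, and ICH+P7C3-A20 3 was within 1 CPM of the highest ICH library. In FPKM, the deposited values scaled by transcript length, these 2 crossed (9.61 in ICH 3 and 8.20 in ICH+P7C3-A20 3). Tfrc was 1.56-fold lower in ICH than in sham (log2 change -0.64 ± 0.14, edgeR adjusted p = 0.00769), and that call was lost in limma on log2(FPKM + 1) and log2(FPKM + 0.1) (adjusted p = 0.0597 and 0.0567). In ICH+P7C3-A20 against ICH the log2 change was 0.41 ± 0.14, which did not pass the test (edgeR adjusted p = 0.102, 95% interval 0.10 to 0.73). Against sham it was -0.23 ± 0.14 (edgeR adjusted p = 0.458, 95% interval -0.54 to 0.08).

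Slc11a2 (chr15:100387898-100424092, minus strand) encodes DMT1, the transporter that moves iron from the endosome to the cytosol. It was read at 53.4, 50.0 and 53.8 CPM in sham, at 45.0, 48.5 and 49.1 CPM in ICH and at 51.9, 48.4 and 52.7 CPM in ICH+P7C3-A20. All 9 libraries lay close together, with the 3 ICH values just below the sham values and within reach of the ICH+P7C3-A20 values. The changes were -0.14 ± 0.09 for ICH against sham (log2, edgeR adjusted p = 0.282, 95% interval -0.33 to 0.05) and 0.10 ± 0.09 for ICH+P7C3-A20 against ICH (edgeR adjusted p = 0.545, 95% interval -0.09 to 0.29). The interval for ICH against sham does not reach the change of Tfrc, -0.64, which was the smallest in size among the other 9 genes. Slc11a2 was the iron gene with no call in any of the 3 comparisons, in edgeR and in each of the 18 alternatives.

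Steap3 (chr1:120190757-120271082, minus strand) encodes the endosomal ferrireductase that works beside the transferrin receptor. It stood at 6.84, 7.71 and 4.52 CPM in sham, 19.5, 19.2 and 18.6 CPM in ICH and 7.46, 11.2 and 12.5 CPM in ICH+P7C3-A20. The ICH values were tight and above all others, and ICH+P7C3-A20 1 fell inside the sham range. Steap3 rose 3.01-fold after ICH (log2 change 1.59 ± 0.23, edgeR adjusted p = 0.000669) and was 1.84-fold lower in ICH+P7C3-A20 than in ICH (-0.88 ± 0.23, edgeR adjusted p = 0.0402). The second call was lost without sham 1, any 1 ICH library, ICH+P7C3-A20 1 or ICH+P7C3-A20 2 (edgeR adjusted p from 0.0555 to 0.125) and in limma on log2(FPKM + 0.1) (adjusted p = 0.0560). Against sham the ICH+P7C3-A20 change was 0.71 ± 0.23 (edgeR adjusted p = 0.118, 95% interval 0.20 to 1.22); it was called without ICH+P7C3-A20 1 (0.90, edgeR adjusted p = 0.0312) and in DESeq2 (adjusted p = 0.0473).

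The other uptake genes rose as well. Slc39a14 (chr14:70303469-70351425, minus strand) encodes ZIP14, a transporter of iron that is not bound to transferrin. It was read at 30.6, 29.3 and 26.5 CPM in sham, at 54.1, 54.1 and 60.4 CPM in ICH and at 36.2, 36.4 and 37.8 CPM in ICH+P7C3-A20. The 3 groups stood in 3 separate bands with no overlap. Slc39a14 was 1.95-fold higher in ICH than in sham (log2 change 0.96 ± 0.10, edgeR adjusted p = 5.57e-05). It was 1.53-fold lower in ICH+P7C3-A20 than in ICH (-0.61 ± 0.10, edgeR adjusted p = 0.00731). The change of ICH+P7C3-A20 against sham was 0.35 ± 0.10 and did not pass the test in edgeR (adjusted p = 0.0645, 95% interval 0.14 to 0.56), but did in DESeq2 (adjusted p = 0.0307).

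Slc11a1 (chr1:74375195-74386052, plus strand) encodes NRAMP1, which moves iron out of the phagosomes of macrophages and their kin. It was near the bottom of the set in sham at 1.68, 1.77 and 1.93 CPM, and reached 35.0, 41.2 and 34.2 CPM in ICH and 8.00, 12.6 and 15.5 CPM in ICH+P7C3-A20. Again the groups did not overlap, and the lowest ICH+P7C3-A20 value was still above every sham value. The ICH rise was 20.6-fold (log2 change 4.36 ± 0.24, edgeR adjusted p = 5.81e-06), and the level in ICH+P7C3-A20 was 3.05-fold below ICH (-1.61 ± 0.21, edgeR adjusted p = 0.00634) and 6.74-fold above sham (2.75 ± 0.23, edgeR adjusted p = 0.000202).

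Cybrd1 (chr2:71117923-71142926, plus strand) encodes DCYTB, a ferric reductase of the cell surface. It stood at 2.08, 2.72 and 1.74 CPM in sham, 12.4, 13.4 and 12.3 CPM in ICH and 4.08, 7.90 and 6.22 CPM in ICH+P7C3-A20. ICH+P7C3-A20 libraries lay between the other groups without touching either. Cybrd1 rose 5.81-fold after ICH (log2 change 2.54 ± 0.27, edgeR adjusted p = 7.61e-05). It was 2.09-fold lower in ICH+P7C3-A20 than in ICH (-1.06 ± 0.25, edgeR adjusted p = 0.0296), a call lost without any 1 ICH library, ICH+P7C3-A20 1 or ICH+P7C3-A20 3 (edgeR adjusted p from 0.0696 to 0.103) and in limma on log2(FPKM + 0.1) (adjusted p = 0.0541). It was 2.78-fold above sham in ICH+P7C3-A20 (1.48 ± 0.26, edgeR adjusted p = 0.00857), a call lost with the 2 compared groups fitted alone (edgeR adjusted p = 0.0633) and in the 3 limma fits on FPKM (adjusted p from 0.0558 to 0.123). Cybrd1 transcripts share stretches of up to 150 bases (95% identity or more) with 164 other genes, and its counts carry that uncertainty.

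Export was measured through ferroportin and ceruloplasmin. Slc40a1 (chr1:45908068-45926523, minus strand) encodes ferroportin, the known cellular iron exporter, and 1 of its 4 coding transcripts holds the 5' UTR match printed with Tfrc's. It was read at 6.91, 9.71 and 9.52 CPM in sham, at 33.9, 27.5 and 33.8 CPM in ICH and at 12.1, 22.7 and 20.6 CPM in ICH+P7C3-A20. The ICH+P7C3-A20 libraries were above every sham and below every ICH library, but spread widely, with ICH+P7C3-A20 1 far the lowest of its group. Slc40a1 rose 3.64-fold after ICH (log2 change 1.86 ± 0.23, edgeR adjusted p = 0.000220). The change from ICH to ICH+P7C3-A20 was -0.78 ± 0.22 and missed the threshold (edgeR adjusted p = 0.0561, 95% interval -1.28 to -0.29). It was called without ICH+P7C3-A20 2 (-0.96, edgeR adjusted p = 0.0402) and in DESeq2 (adjusted p = 0.00831). Slc40a1 was 2.12-fold above sham in ICH+P7C3-A20 (1.08 ± 0.23, edgeR adjusted p = 0.0208), a call lost without sham 1, ICH+P7C3-A20 2 or ICH+P7C3-A20 3 (edgeR adjusted p = 0.0872, 0.0716 and 0.0906), with the compared groups fitted alone (edgeR adjusted p = 0.0843) and in the 3 limma fits on FPKM (adjusted p from 0.141 to 0.217).

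Cp (chr3:19957054-20009145, plus strand) encodes ceruloplasmin, the copper ferroxidase that loads exported iron onto transferrin and is made by astrocytes in the brain. It stood at 15.7, 13.4 and 10.7 CPM in sham, 47.5, 50.7 and 41.7 CPM in ICH and 23.4, 21.8 and 25.4 CPM in ICH+P7C3-A20. The 3 groups did not overlap. The rise after ICH was 3.52-fold (log2 change 1.81 ± 0.15, edgeR adjusted p = 1.75e-05), and the level was 1.98-fold lower in ICH+P7C3-A20 than in ICH (-0.99 ± 0.15, edgeR adjusted p = 0.00684). In ICH+P7C3-A20 Cp was 1.77-fold above sham (0.83 ± 0.15, edgeR adjusted p = 0.00893), a call lost with the compared groups fitted alone (edgeR adjusted p = 0.0564) and in limma on quantile-normalized FPKM (adjusted p = 0.0901). Hps3 overlaps Cp on the opposite strand, and whether the counting used strand is not stated in the labels.

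Lcn2 (chr2:32384633-32387797, minus strand) encodes lipocalin 2, an acute-phase protein that binds iron-loaded siderophores. It was low in sham at 0.559, 0.441 and 1.18 CPM, and reached 103, 120 and 89.4 CPM in ICH and 23.1, 32.5 and 53.0 CPM in ICH+P7C3-A20. No sham library came near the others, and the highest ICH+P7C3-A20 value was well below the lowest ICH value. The ICH level was 143-fold above sham (log2 change 7.13 ± 0.43, edgeR adjusted p = 6.84e-06). In ICH+P7C3-A20 it was 49.7-fold above sham (5.60 ± 0.41, edgeR adjusted p = 0.000169) and 2.88-fold below ICH (-1.53 ± 0.32, edgeR adjusted p = 0.0203). The call against ICH was lost without ICH 1, ICH 2, ICH 3, ICH+P7C3-A20 1 or ICH+P7C3-A20 2 (edgeR adjusted p from 0.0546 to 0.0748).

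Lcn2 and Cp are acute-phase genes, a class known to be driven by C/EBP factors, so the promoters were read for the letters TTGCNNAA (C/EBP) on both strands, and for 4 other motifs. RefSeq windows (GRCm38.p6) of 250 bases upstream of a start were at hand for 6 of the 10 genes, Slc11a1, Steap3, Lcn2, Cybrd1, Cp and Tfrc, in 11 windows. Lcn2, Cp and Steap3 had a match in 1 window each, so 3 of 11 windows held the letters, and 9.56% of 32851 windows of the same length did. For Cp and Steap3 that window belonged to an inner RefSeq start, and the match lay within the deposited span of the gene. Their windows at the outermost start held 0 C/EBP matches. The 30 bases around each match are written 5' to 3' along the gene, with the match in capitals, at 216, 70 and 223 bases upstream of the RefSeq start of that window.
Lcn2, chr2:32387937-32387966, minus strand: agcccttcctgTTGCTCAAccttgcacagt
Cp, chr3:19957168-19957197, plus strand: attagttactcTTTTGCAAcattaaattgt
Steap3, chr1:120270475-120270504, minus strand: tctccccctccTTTTGCAAggccaagtctc
The NF-kappaB motif was in 2 of the 11 windows, both of Steap3 (15.9% of all windows), and the hypoxia-response core ACGTG in 1, of Tfrc (16.6%). The STAT letters TTCNNNGAA (7.02%) and the antioxidant-response letters TGACNNNGC (10.2%) were in 0 of the 11. Lcn2, Cp and Steap3 all rose after ICH, as did Slc11a1 and Cybrd1, whose windows held no such letters. No match says only that the letters are not in that window.

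**Figure D2:**
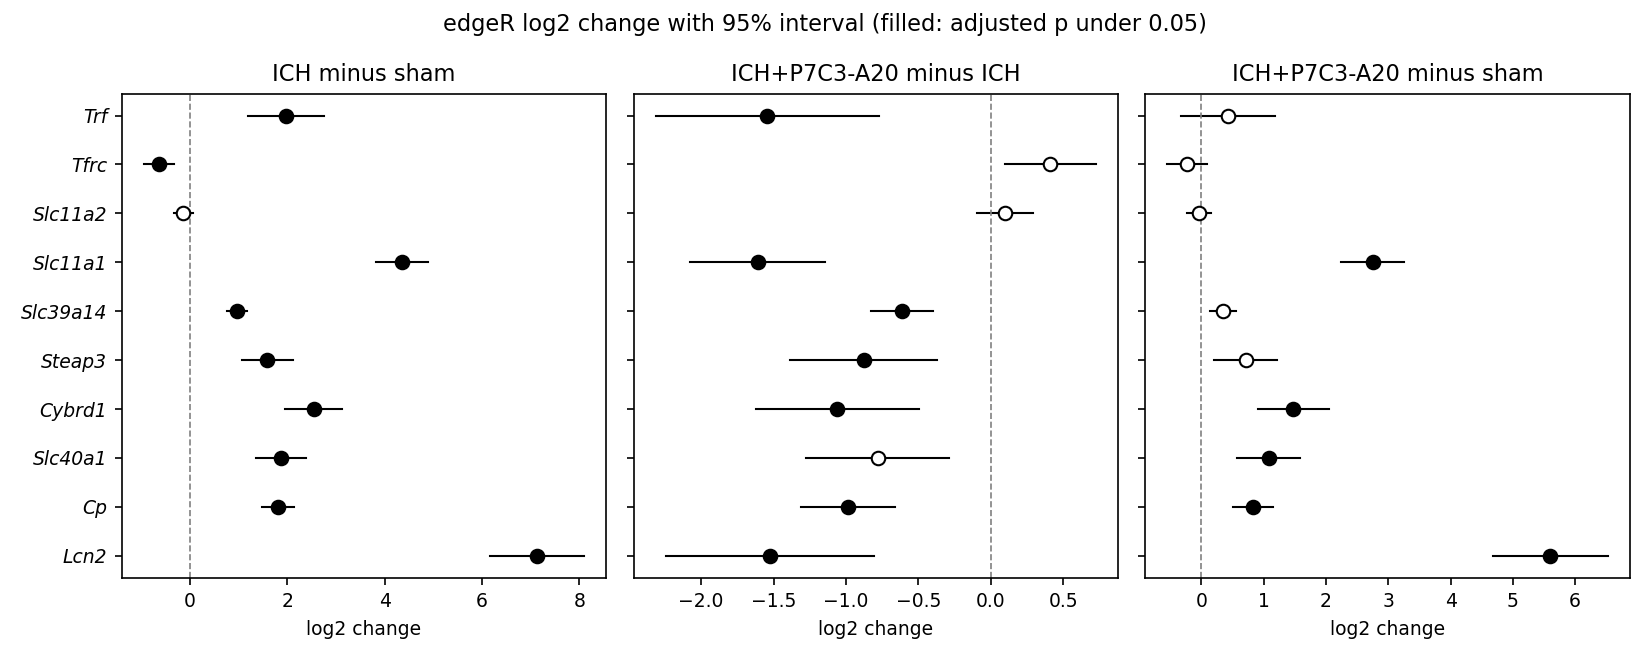
Log2 change of each iron gene (rows) with its 95% interval in ICH minus sham, ICH+P7C3-A20 minus ICH and ICH+P7C3-A20 minus sham (panels, each with its own scale); filled points had an edgeR adjusted p under 0.05, and the dashed line marks no change. In the middle panel 7 filled points lie below 0, and Slc40a1 at -0.78 is the open point on that side.

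The count of iron genes that fell in ICH+P7C3-A20 against ICH depended on single libraries. It was 3 of 10 without ICH 1, without ICH 2 or without ICH 3, and 4 without ICH+P7C3-A20 1. The count over all genes tested also fell in those fits, from 1324 called lower to 597, 465, 592 and 683. Slc11a1, Slc39a14 and Cp were called in each of the 18 alternatives. ICH+P7C3-A20 1 was the lowest library of its group for Trf, Slc11a1, Slc39a14, Steap3, Cybrd1, Slc40a1 and Lcn2 and the highest for Tfrc. The directions of all 10 changes from ICH to ICH+P7C3-A20 were the same in each alternative.

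Per transcript length, in FPKM as deposited, transferrin mRNA stood far above the rest in every group. In sham the order of mean FPKM was Trf (94.7), Tfrc (11.9), Slc11a2 (6.86), Slc39a14 (2.26), Cp (1.13), Steap3 (0.909), Slc40a1 (0.807), Slc11a1 (0.390), Cybrd1 (0.334) and Lcn2 (0.225). Libraries of neighbours in that order overlapped for Cp and Steap3, Steap3 and Slc40a1, Slc11a1 and Cybrd1, and Cybrd1 and Lcn2. In ICH, Lcn2 moved from the last place to the place after Trf (387), at 33.9 FPKM, and Slc11a1 (8.49) stood beside Tfrc (7.89) and Slc11a2 (6.43), with overlap between Slc11a1 and Tfrc and between Tfrc and Slc11a2. Below them came Slc39a14 (4.59), Cp (4.16), Slc40a1 (3.04), Steap3 (2.87) and Cybrd1 (2.04), with overlap between Slc39a14 and Cp and between Slc40a1 and Steap3. In ICH+P7C3-A20 the order was Trf (132), Lcn2 (11.4), Tfrc (10), Slc11a2 (6.63), Slc39a14 (2.88), Slc11a1 (2.70), Cp (2.02), Slc40a1 (1.72), Steap3 (1.52) and Cybrd1 (0.962), and neighbours were separate only at Trf and Lcn2, Tfrc and Slc11a2, and Slc11a2 and Slc39a14.

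The balance between related iron genes shifted with the groups. The endosomal transporter Slc11a2 was 16.8 to 19.5 times its phagosomal relative Slc11a1 in FPKM in sham, 0.687 to 0.839 times in ICH and 1.98 to 3.82 times in ICH+P7C3-A20, with no overlap between groups. Trf was 7.49 to 8.83 times Tfrc in sham and 43.9 to 55.4 times in ICH. In ICH+P7C3-A20 the Trf to Tfrc ratio was 4.59 in library 1, 19.6 in library 2 and 16.3 in library 3, so this group lay on both sides of sham and below ICH.

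**Figure D3:**
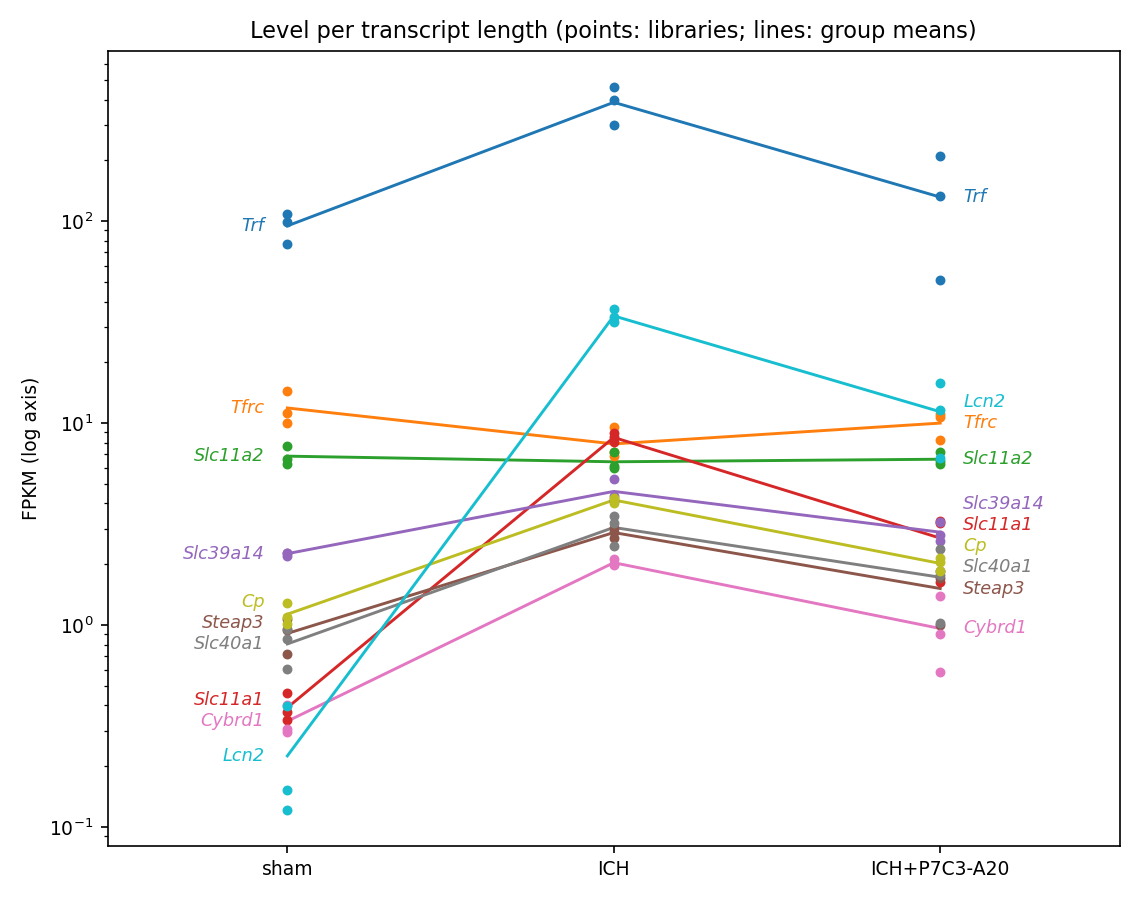
Level per transcript length of the 10 iron genes in FPKM (vertical log axis) in sham, ICH and ICH+P7C3-A20; points are libraries and lines join group means (n = 3). Lcn2 goes from the last place in sham, at 0.225 FPKM, to the place after Trf in ICH, at 33.9 FPKM.

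Other iron genes gave context from 4 lists of 40 genes in all, of which 37 were tested. After ICH 11 of the 37 rose and 1 fell, with a median log2 change of 0.25. In ICH+P7C3-A20 against ICH 6 fell (median -0.29), and edgeR called 0 higher, with 2 at an unadjusted p under 0.05 and 0 by DESeq2 or limma. Against sham 3 rose (median 0.16) and 0 fell, with 0 lower at an unadjusted p under 0.05, by DESeq2 or by limma. The shares over all genes tested were those given for the 10 genes. Without 1 library the count of falls from ICH to ICH+P7C3-A20 ran from 0 to 6, and that over all genes from 465 to 1727.

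Among 12 genes of other import, reduction and intracellular transport, 2 rose and 1 fell after ICH. Of all genes tested, 15.6% were called higher and 10.4% lower in that comparison. Steap4, a metalloreductase, rose 24.0-fold (log2 change 4.59 ± 0.49, edgeR adjusted p = 7.98e-05) and was lower in ICH+P7C3-A20 than in ICH (-1.84 ± 0.42, edgeR adjusted p = 0.0253). Slc39a8, the ZIP8 transporter and a close relative of Slc39a14, rose by 1.22 ± 0.22 after ICH (log2, edgeR adjusted p = 0.00251) and was lower with P7C3-A20 (-0.87 ± 0.22, edgeR adjusted p = 0.0369). Exoc6, a part of the exocyst that recycles transferrin, fell after ICH (log2 change -0.53 ± 0.13, edgeR adjusted p = 0.0104).

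Among export partners and the hepcidin axis, 3 of 12 genes tested rose after ICH (15.6% of all genes did) and none fell. Hfe, which pairs with transferrin receptors in iron sensing, rose by 2.18 ± 0.17 (log2, edgeR adjusted p = 1.48e-05) and was lower in ICH+P7C3-A20 than in ICH (-0.82 ± 0.17, edgeR adjusted p = 0.0161). Atoh8 and Id1, targets of bone morphogenetic protein signalling, rose by 1.27 ± 0.27 and 1.15 ± 0.27 (edgeR adjusted p = 0.00580 and 0.00920). Hamp, which encodes hepcidin, the hormone that removes ferroportin from the cell surface, had 0 counts in 8 libraries and 0.167 CPM in ICH 2, and was not tested.

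Of 8 genes of iron sensing and storage, 5 rose after ICH (15.6% of all genes did) and none fell. Ftl1, the ferritin light chain, rose 10.2-fold (log2 change 3.36 ± 0.31, edgeR adjusted p = 3.81e-05) and Fth1, the heavy chain, rose by 1.23 ± 0.17 (edgeR adjusted p = 0.000434). Hif1a, a hypoxia factor, rose by 0.52 ± 0.10 (edgeR adjusted p = 0.00291), and Epas1 and Aco1 were the other 2 called. Ftl1, Fth1 and Hif1a were lower in ICH+P7C3-A20 than in ICH (log2 changes -1.51 ± 0.29, -0.83 ± 0.17 and -0.46 ± 0.10, edgeR adjusted p = 0.0136, 0.0158 and 0.0189).

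Among 5 receptors and partners of lipocalin 2, Mmp9, the gelatinase that lipocalin 2 binds, was the 1 called higher after ICH (log2 change 2.21 ± 0.59, edgeR adjusted p = 0.0181). The share of all genes called higher was 15.6%. Slc22a17, the lipocalin 2 receptor, averaged 88.2 FPKM in sham, 73.3 in ICH and 83.8 in ICH+P7C3-A20, and its change after ICH missed the threshold (-0.33 ± 0.11, edgeR adjusted p = 0.0527). In FPKM the receptor exceeded Lcn2 by 231 to 720 times in sham, 1.62 to 2.69 times in ICH and 4.75 to 11.8 times in ICH+P7C3-A20.

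Marker genes of several cell types moved with the iron genes. The counts of markers called, here and in the next paragraphs, stand beside these shares of all genes tested: 15.6% higher and 10.4% lower after ICH. In ICH+P7C3-A20 against ICH the shares were 2.69% higher and 6.05% lower. Markers of monocytes and macrophages (10 genes, led by Lyz2 and Cd68) summed to 29.6 to 34.8 CPM in sham, 537 to 730 CPM in ICH and 136 to 267 CPM in ICH+P7C3-A20, with 9 higher and 1 lower after ICH. Slc11a1 per 1000 CPM of these markers was 48.2 to 65.0 CPM in sham, 56.5 to 63.7 CPM in ICH and 58.1 to 73.5 CPM in ICH+P7C3-A20, so the ratio overlapped between the 3 groups where Slc11a1 alone did not. Homeostatic microglia markers (7 genes, with Csf1r and Cx3cr1 the most abundant, all called higher after ICH) summed to 238 to 264, 760 to 893 and 411 to 638 CPM. Against these, Slc11a1 was 6.66 to 7.40 CPM per 1000 in sham, 41.1 to 46.2 in ICH and 19.5 to 27.6 in ICH+P7C3-A20, with no overlap. The part of these cells in the Slc11a1 result was not tested.

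For Lcn2, reactive astrocyte markers (7 genes, led by Gfap and Vim, all called higher after ICH) summed to 143 to 222 CPM in sham, 4432 to 5334 CPM in ICH and 1169 to 2266 CPM in ICH+P7C3-A20. Lcn2 per 1000 CPM of them was 2.27 to 8.28 CPM in sham, 19.3 to 24.3 CPM in ICH and 18.1 to 23.4 CPM in ICH+P7C3-A20, so the ratios of the injured groups overlapped. Neutrophil markers (9 genes, led by Csf3r and Mmp8, 4 of 7 tested called higher after ICH) summed to 8.40 to 10.04, 39.6 to 69.6 and 21.6 to 39.5 CPM. Csf3r alone averaged 8.36 CPM in sham, 47.8 CPM in ICH and 24.3 CPM in ICH+P7C3-A20, so the sum rests mostly on that gene. Lcn2 per 1000 CPM of these markers was 44.0 to 141 CPM in sham, 1727 to 2259 CPM in ICH and 1014 to 1504 CPM in ICH+P7C3-A20, with no overlap. The defining neutrophil marker Ly6g was at 0 in every sham and every ICH library, and at 0.167 CPM in ICH+P7C3-A20 1. Cxcr2 was at 0 in every sham library and at 0.228 to 2.62 CPM in ICH (edgeR adjusted p = 0.00597). Mmp8 and S100a9 averaged 0.0202 and 0.0985 CPM in sham, and 3.42 and 1.27 CPM in ICH (edgeR adjusted p = 0.000338 and 0.0155). S100a8, Camp and Ngp were tested and not called after ICH. The part of either cell type in the Lcn2 result was not tested.

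For Trf, oligodendrocyte markers (9 genes, with Mbp and Mobp the most abundant) summed to 6929 to 8630 CPM in sham, 10241 to 12293 CPM in ICH and 4474, 8718 and 9362 CPM in ICH+P7C3-A20 1, 2 and 3, with 1 of 9 called higher after ICH. Trf per 1000 CPM of these markers was 46.8 to 49.6 CPM in sham and 118 to 162 CPM in ICH, and 49.3, 84.9 and 60.7 CPM in ICH+P7C3-A20 1, 2 and 3. On that ratio every ICH library was above every other, and ICH+P7C3-A20 1 was within the sham range. Choroid plexus markers (10 genes, led by Ttr and Kl, none called after ICH) ranged from 34.9 to 680 CPM in sham, from 40.3 to 3305 CPM in ICH and from 100 to 2174 CPM in ICH+P7C3-A20. ICH 2 held 40.3 CPM of choroid plexus markers and 1245 CPM of Trf, and sham 2 held 680 and 412 CPM. The part of these cells in the Trf result was not tested.

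For Cp, homeostatic astrocyte markers (7 genes, led by Slc1a2 and Slc1a3) summed to 2756 to 2970 CPM in sham, 2892 to 3533 CPM in ICH and 3427 to 3983 CPM in ICH+P7C3-A20. After ICH 4 were called higher and 0 lower, and in ICH+P7C3-A20 against ICH 1 higher and 2 lower. Slc1a2, the largest part of the sum, averaged 1828 CPM in sham, 1499 CPM in ICH and 2400 CPM in ICH+P7C3-A20. Cp per 1000 CPM of these markers was 3.61 to 5.34 CPM in sham, 14.3 to 15.4 in ICH and 6.15 to 6.38 in ICH+P7C3-A20. Against reactive astrocyte markers Cp went the other way, at 68.8 to 75.2 CPM per 1000 in sham, 8.90 to 10.2 in ICH and 11.2 to 20 in ICH+P7C3-A20. For Tfrc, pan-neuronal markers (6 genes, led by Snap25 and Map2, all called lower after ICH) summed to 4087 to 4526 CPM in sham, 2566 to 2825 CPM in ICH and 3395 to 5202 CPM in ICH+P7C3-A20. Tfrc per 1000 CPM of them was 17.3 to 24.1 CPM in sham, 18.5 to 25.0 CPM in ICH and 17.2 to 20.7 CPM in ICH+P7C3-A20, so the ratio overlapped in all 3 groups. Against endothelial markers (8 genes, led by Flt1 and Slco1a4, 6 called higher after ICH) Tfrc was 388 to 442 CPM per 1000 in sham, 134 to 167 in ICH and 194 to 334 in ICH+P7C3-A20. The part of these cells in the Cp and Tfrc results was not tested. Red blood cell markers (7 genes, led by Hbb-bs and Hba-a1, 4 of 6 tested called higher after ICH) summed to 9.28 to 28.6, 45.3 to 88.0 and 14.2 to 38.5 CPM.

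**Figure D4:**
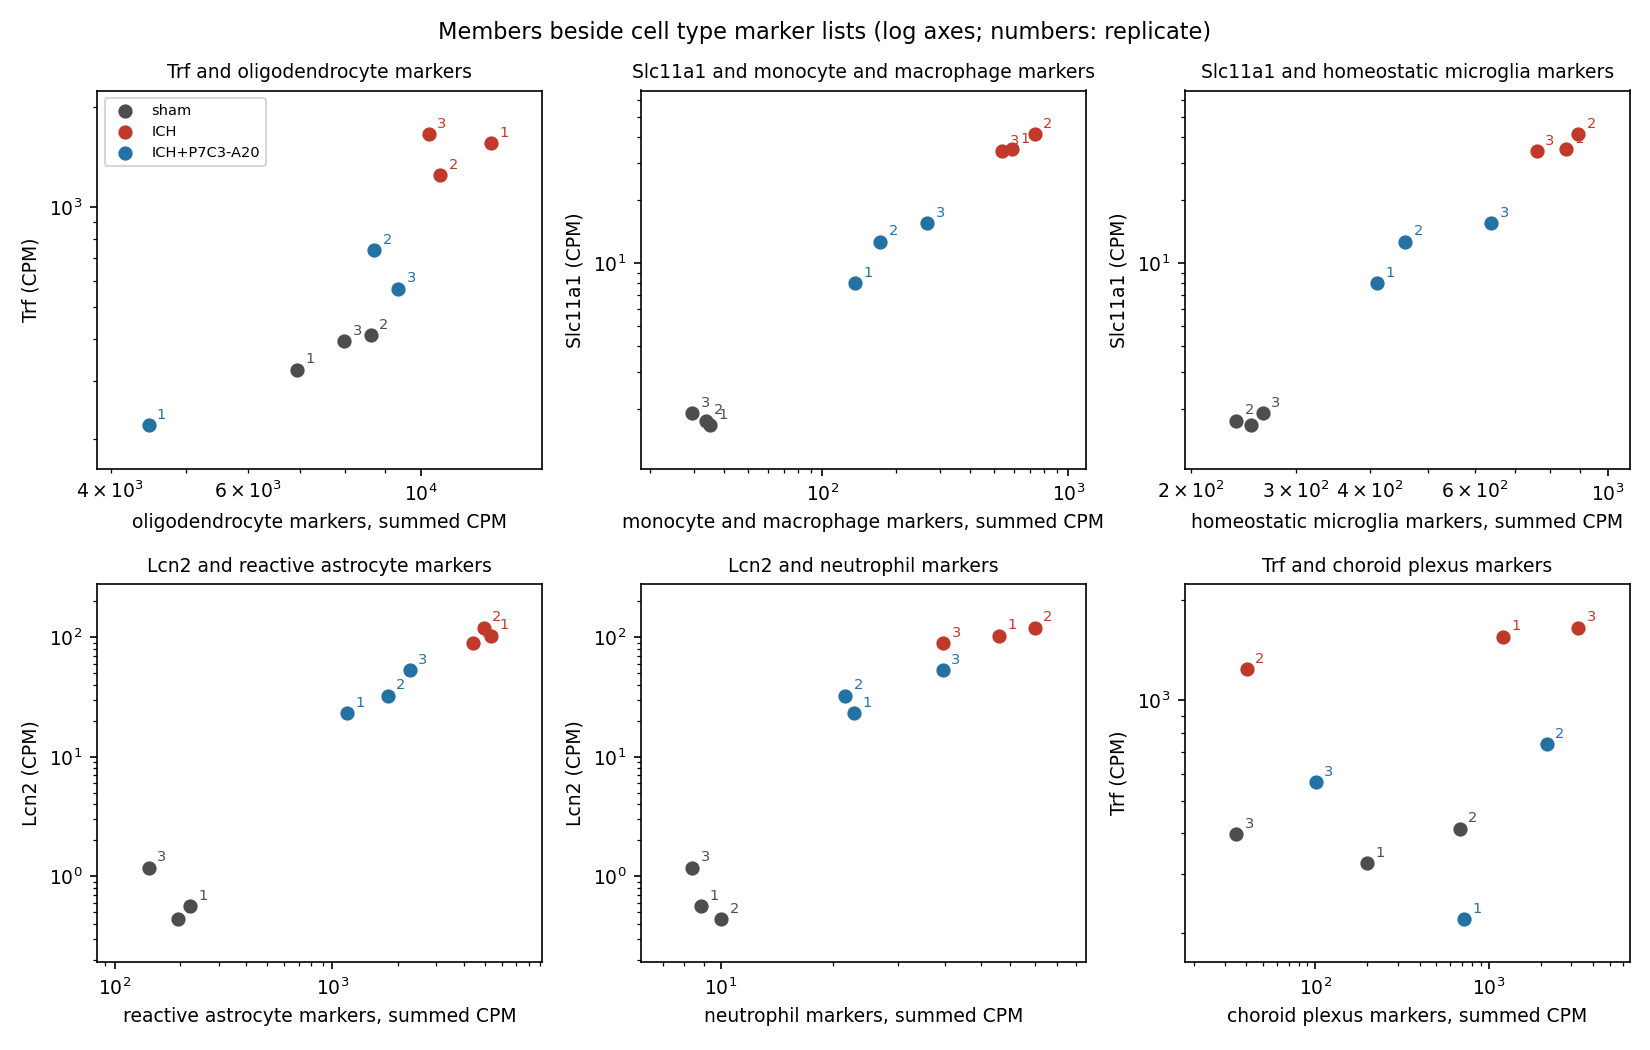
Level of Trf, Slc11a1 or Lcn2 (vertical log axis, CPM) against the summed level of a marker list (horizontal log axis, CPM) in the 9 libraries, numbered by replicate, with sham in grey, ICH in red and ICH+P7C3-A20 in blue. In the panel of Trf and choroid plexus markers, ICH 2 stands at 40.3 CPM of markers and 1245 CPM of Trf.

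Genes with the most similar profile to an iron gene were found by the root mean square (RMS) difference of log2(CPM + 0.5), centred on each gene's mean, over the 9 libraries. This was done for the 7 iron genes with a 2-fold difference or more between group means. For Slc11a1 they were Ckap2, Bcl3 and Tlr2 (0.13, 0.13 and 0.14, where Slc11a1's own RMS about its mean was 1.67). For Cp they were Fli1, Cnn2 and Aqp4 (0.10 each, own RMS 0.75), and for Cybrd1 Angpt2, Cd86 and Cd300a (0.11, 0.12 and 0.13, own RMS 0.98). For Steap3 they were Ccnd3, Brip1os and Dcxr (0.08, 0.08 and 0.11, own RMS 0.68), and for Slc40a1 Tax1bp3, Timeless and Mapkapk3 (0.12, 0.13 and 0.14, own RMS 0.79). Trf and Lcn2 had no neighbour as close in these units, which are not scaled to a gene's own RMS. Eldr, Phf19 and Tyms lay at 0.23, 0.27 and 0.28 from Trf (own RMS 0.98). Lilrb4a, Gpnmb and Lilr4b lay at 0.45, 0.48 and 0.50 from Lcn2 (own RMS 2.77, the largest of the 7).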

How the data were processed

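The submitters' processing notes list the tools cutadapt (1.9), HISAT2 (2.0.4) and StringTie (1.3.4d). The authors deposited 1 table with FPKM values and estimated counts per library, per the file headers. Neither the build, nor whether counting used strand, nor the tool behind the counts is stated in the labels. Of 35112 gene IDs, 34996 are in GENCODE M21 (GRCm38), 30806 at the identical position and strand, and 6 of the 10 iron genes are identical there while the other 4 differ at 1 end. Because the estimated counts were whole numbers, no rounding was needed, and 0 value columns were left unmapped.

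Counts were analysed with edgeR 4.0.16 (R 4.3.3). Its filterByExpr step, with a minimum count of 10 and a minimum total of 15, left 21900 genes. The fit scaled libraries by TMM and fitted robust quasi-likelihood models of 3 group means over 9 libraries (6 residual degrees of freedom). A gene was called when its two-sided p, adjusted by Benjamini-Hochberg over all genes tested, was under 0.05. Alternatives were RLE and upper-quartile scaling, DESeq2 1.42.0, no filter, limma 3.58.1 on log2(FPKM + 1) and log2(FPKM + 0.1), the compared groups alone, a replicate block, each library left out and, chosen after seeing the data, quantile-normalized FPKM. Only the main edgeR fit was tried on simulated counts, for ICH against sham, with an outcome not reported here. The alternatives and the other comparisons were not simulated. Figures used matplotlib 3.10.9 in Python 3.11.15.

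Named genes were the 10 iron genes, up to 3 called genes of smallest p per iron list in ICH against sham and in ICH+P7C3-A20 against ICH, Hamp, Slc22a17 and Fth1, and the 2 most abundant genes of a marker list. Epas1, Aco1 and the neutrophil markers Ly6g, Cxcr2, S100a8, S100a9, Camp and Ngp were named after their values were seen. The iron genes and lists were chosen with earlier results of these data known. A marker each of the microglia and oligodendrocyte lists is not reported here and was left out of the sums.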

Additional observations from a re-analysis of the deposited data

How the results depend on the processing

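Over the 3 comparisons, the log2 changes of the 10 iron genes were recomputed 540 times: 494 kept direction and side of the threshold, 39 lost the call, 7 gained one and 0 reversed. The 8 rises after ICH were called in each of the 18 alternatives. The fall after ICH counted 0 iron genes in limma on log2(FPKM + 1) and on log2(FPKM + 0.1). For the other iron genes after ICH, the count of falls was 0 in those 2 fits, 2 with RLE scaling, upper-quartile scaling and DESeq2, and 0 to 2 with 1 library left out. In ICH+P7C3-A20 against ICH, 3 to 7 of the 10 fell with 1 library left out; of the other iron genes 3 fell on quantile-normalized FPKM and 0 to 6 with 1 library left out. In ICH+P7C3-A20 against sham, 3 of the 10 were called higher in both limma fits on FPKM, 2 on quantile-normalized FPKM and with the compared groups alone, and 4 to 7 with 1 library left out. The cause was not tested, and the fits of the last kind also held fewer libraries.

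Replicate numbers did not pair the libraries: deviations of same-numbered libraries correlated at -0.23 to 0.20 over 9 pairs. With the replicate block, 7 iron genes fell from ICH to ICH+P7C3-A20, with Slc40a1 gained (adjusted p = 0.0439) and Steap3 lost (adjusted p = 0.0575), and 1697 genes in all were called against 1914. Among all genes, the share of calls that were higher after ICH was 60.0%, 47.1% on quantile-normalized FPKM and 73.4% in limma on log2(FPKM + 1); in ICH+P7C3-A20 against ICH it was 30.8%, 13.3% in limma on log2(FPKM + 1), 14.9% on log2(FPKM + 0.1), 36.8% in DESeq2 and 40.6% with upper-quartile scaling. The folds of low genes are smaller on the FPKM scale with a pseudocount: the Lcn2 change after ICH was 4.84 in limma on log2(FPKM + 1) against 7.13. With 3 mice per group the number of animals limits precision, and low values, such as Lcn2 in sham, rest on few counts.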
